A study of Mus musculus with 12 samples.

Results

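The enzymes that place and remove cytosine methylation were followed in early thymic progenitors, the immature cells from which thymic T cells arise. The set holds 7 genes, taken by symbol, with no threshold on measured values: the methyltransferases Dnmt1, Dnmt3a and Dnmt3b, the maintenance cofactor Uhrf1, and the dioxygenases Tet1, Tet2 and Tet3. All 7 were among the 13016 genes of the table, and all 7 passed the filter on low values that left 10690 genes for testing.

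Messenger RNA was sequenced in 12 libraries from C57BL/6 mice, 4 per genotype, each from 100 sorted cells. The dKO_Flt3ITD progenitors carried Ezh2 fl/fl and Runx1 fl/fl alleles, the Rag1Cre recombinase and 1 Flt3 ITD allele beside a wild-type one. The dKO progenitors carried the same floxed alleles with Rag1Cre and no Flt3 ITD. The control progenitors carried both pairs of floxed alleles without a recombinase, so every group shares the floxed alleles. Ezh2 encodes the histone H3 lysine methyltransferase of Polycomb repressive complex, Runx1 a transcription factor of blood development, and Flt3 a cytokine receptor whose internal tandem duplication is an activating mutation found in leukaemia. Rag1Cre acts in early lymphoid cells, so deletion depends on how far each cell had expressed it. The ages of the mice, any pooling and whether replicates came from separate animals are not stated in the labels, so each p-value speaks of the spread among libraries, which may be technical.

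DNA methylation is copied at each S phase. UHRF1 binds hemimethylated CpG sites behind the replication fork and recruits DNMT1, which methylates the new strand, while DNMT3A and DNMT3B methylate sites that carried no mark before. TET enzymes oxidise 5-methylcytosine, which leads to its loss either by dilution at replication or by base excision repair. Mutations of DNMT3A and TET2 are frequent in human blood cancers, among them leukaemias of early T-cell progenitor type.

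The promoters of the genes that the results return to most are shown here, because maintenance genes are usually described as S phase genes and because CpG sites are the substrate of these enzymes. Sequences are RefSeq windows on GRCm38.p6, 250 bases before to 50 after an annotated start, and 12 windows matched the 7 genes. All windows were searched on both strands for 4 E2F-type motifs, TTTCCCGC, TTTGGCGC, TTTCGCGC and TTTGCCGC, which differ from one another only in the inner bases. Such a motif stood in 744 of 32851 windows, or 2.26%. Among the 7 genes it was found in 1 window of Uhrf1 and 1 of Dnmt1. Each motif holds a CpG, and the 2.26% is a share of windows that was not matched for CpG content. The 2 windows with a match held 33 CpG sites each, so the share gives no measure of excess. A match is a description of the letters and no evidence of binding. Capitals mark the motif match in the Uhrf1 and Dnmt1 stretches (on the opposite strand in Dnmt1, whose window holds another match near its end), and every CpG in the Tet3 stretch. The Uhrf1 stretch lies at chr17:56304063-56304312 on the plus strand, the Dnmt1 stretch at chr9:20952824-20952853 on the minus strand, and the Tet3 stretch at chr6:83441679-83441928 on the minus strand.
Uhrf1: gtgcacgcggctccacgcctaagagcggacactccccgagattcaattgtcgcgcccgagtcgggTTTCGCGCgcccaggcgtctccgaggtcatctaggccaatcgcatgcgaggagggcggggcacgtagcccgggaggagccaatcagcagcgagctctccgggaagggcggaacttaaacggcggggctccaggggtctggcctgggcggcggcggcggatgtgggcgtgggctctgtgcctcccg
Dnmt1: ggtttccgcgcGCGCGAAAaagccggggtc
Tet3: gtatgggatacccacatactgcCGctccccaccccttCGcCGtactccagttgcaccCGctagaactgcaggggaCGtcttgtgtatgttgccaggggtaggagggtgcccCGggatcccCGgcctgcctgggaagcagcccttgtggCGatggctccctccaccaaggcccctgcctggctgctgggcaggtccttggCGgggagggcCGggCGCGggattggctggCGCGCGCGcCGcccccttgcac
The whole Uhrf1 window held 33 CpG sites, the Dnmt1 window with the motif also 33, and the Tet3 window 22, against a median of 7 over all windows. Tet2 had the most CpG-rich window of the set with 57 sites, more than 99.8% of all windows. The single windows of Dnmt3b and Tet1 held 30 and 17 sites, and the 3 windows of Dnmt3a held 46, 47 and 18. The 2 upstream Dnmt1 windows, with 2 and 12 sites, and the other Uhrf1 window, with 12, held no match. Annotated exon sequence begins at base 1 of the Dnmt1 window with the motif and at base 251 of the Uhrf1 window with the motif.

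Of the targeted genes, Ezh2 stood between 12 and 24.6 RPKM in dKO_Flt3ITD, 16.9 and 29.8 in dKO, and 32.8 and 45.7 in control. RPKM scales reads to transcript length and library size. Runx1 stood between 32.6 and 58.8 RPKM in dKO_Flt3ITD, 35.9 and 58.2 in dKO, and 16.3 and 25.3 in control. Flt3 stood between 7.73 and 70.1 RPKM in dKO_Flt3ITD, 12.9 and 38.7 in dKO, and 53.3 and 110 in control. A value over the whole gene does not check a deletion of some exons, and none of the 3 passed the adjusted test against control (limma with Benjamini-Hochberg adjustment, p from 0.0949 to 0.470). Whole reads recovered from the steps between low values totalled 13623436 to 33985972 per library. Control 1 resembled the other libraries least, with a mean correlation of 0.786 against up to 0.863. The 12 markers of T-lineage progenitors were all in the table and summed to 552 to 698 RPKM in dKO_Flt3ITD, 595 to 630 in dKO and 778 to 977 in control. Tcf7, 1 of them, was called lower in each mutant genotype against control. Over all tested genes 1.02% were called in dKO against control and 1.5% in dKO_Flt3ITD against control, in either direction. Granulocyte and mast cell markers, 6 of 10 in the table, summed to 237 to 1647 RPKM in dKO_Flt3ITD, 154 to 386 in dKO and 82.6 to 334 in control, with Elane at 0 in every control. The highest of these sums, in dKO_Flt3ITD 4, held 721 RPKM of Mpo. Of 5 tested genes of that list 3 lay above 0 and 2 below in dKO_Flt3ITD against control. Mpo lay below (log2 fold change -1.50, limma adjusted p 0.542), at 56.5, 7.71 and 12.9 RPKM in dKO_Flt3ITD 1 to 3 and 66.0 to 230 in control. Ctsg was called higher. The mast cell protease Cpa3 measured 183 to 566 RPKM in dKO_Flt3ITD and 16.2 to 113 in control (limma adjusted p 0.0541). Macrophage and monocyte markers, 10 of 12 in the table, summed to 98.0 to 494 RPKM in dKO_Flt3ITD, 131 to 321 in dKO and 92.9 to 231 in control. Of 8 tested, 6 lay above 0 in dKO_Flt3ITD against control and 2, Emr1 and Spic, were called higher. Vcam1 was at 0 in every dKO_Flt3ITD library. In dKO against control all 8 lay above 0, with a median of 1.04, and none was called. Later thymocyte markers, 8 of 10 in the table, summed to 61.7 to 142 RPKM in dKO and 18.4 to 45.5 in control. In dKO_Flt3ITD they summed to 6.85 to 62.8 RPKM. Of 5 tested, 3 lay above 0 and 2 below in dKO against control, and none was called. Their part in the results below was not tested. In such bulk samples, fewer cells of a type and less RNA per cell cannot be told apart.

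All 7 genes were transcribed in every library, at levels spanning more than an order of magnitude, and Uhrf1, Dnmt3b and Dnmt1 lay above the 3 erasers by mean level. By mean RPKM over 12 libraries the order was Uhrf1 at 45.9, Dnmt3b at 24.4, Dnmt1 at 20.6, Tet2 at 13.0, Dnmt3a at 8.68, Tet3 at 4.22 and Tet1 at 3.19. Uhrf1 lay above 85.4% of the genes in the table and Tet1 above 34.6%. Uhrf1 exceeded Dnmt3b in 10 of 12 libraries, Dnmt1 exceeded Tet2 in 10, Tet2 exceeded Dnmt3a in 10, and Tet3 exceeded Tet1 in 10. Dnmt3a exceeded Tet3 in all 12. Dnmt3b exceeded Dnmt1 in only 8 of 12, so these neighbours did not separate beyond their spread. Each value rested on 466 to 7807 recovered reads, and counting error alone was at most 4.63%, for Tet1. That figure leaves out amplification from 100 cells, which makes several reads of 1 molecule.

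**Figure D1:**
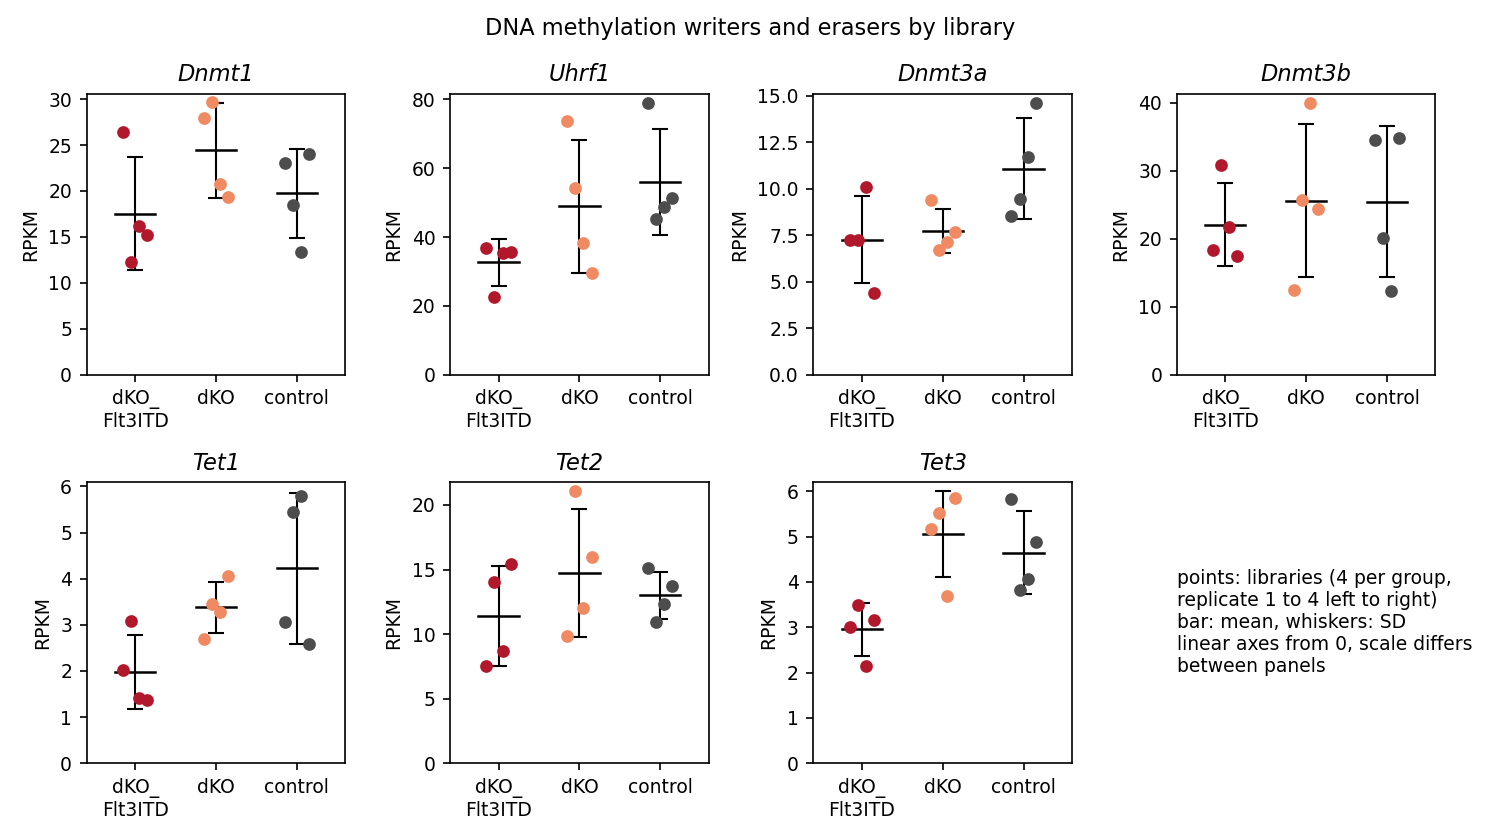
RPKM of each of the 7 genes (y axis, linear from 0, own scale per panel) in the 4 libraries of dKO_Flt3ITD, dKO and control (x axis); points are libraries, bars means and whiskers SD. The 4 dKO_Flt3ITD values of Uhrf1 (22.6 to 36.8) lie below all control values, those of Tet3 (2.14 to 3.50) lie below both other groups, and the other panels overlap.

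None of the 7 passed the test in any of the 3 comparisons (limma on log2(RPKM + 1), adjusted over 10690 genes). By the same test 109 genes (1.02%) were called in dKO against control, 0 (0%) in dKO_Flt3ITD against dKO and 160 (1.5%) in dKO_Flt3ITD against control. For dKO_Flt3ITD against dKO, 824 genes (7.71%) had an unadjusted p under 0.05 in limma, and voom on recovered reads called 0 with 759 (7.1%) under 0.05. In dKO against control the 7 fold changes fell on both sides of 0, with 4 above and 3 below and a median of 0.02 on the log2 scale, beside 0.01 over all tested genes. In dKO_Flt3ITD all 7 lay below 0 against dKO, with a median of -0.49, and all 7 lay below 0 against control, with a median of -0.51. Of all tested genes 49.7% and 49.9% lay below 0 in these comparisons, and their medians were 0.00 in each. Both comparisons use the same dKO_Flt3ITD libraries, so they are not independent of each other. A fixed sum of RPKM moved the median of all genes below 0 in both comparisons. Under the other scalings, which left that median near 0, all 7 also lay below 0.

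**Figure D2:**
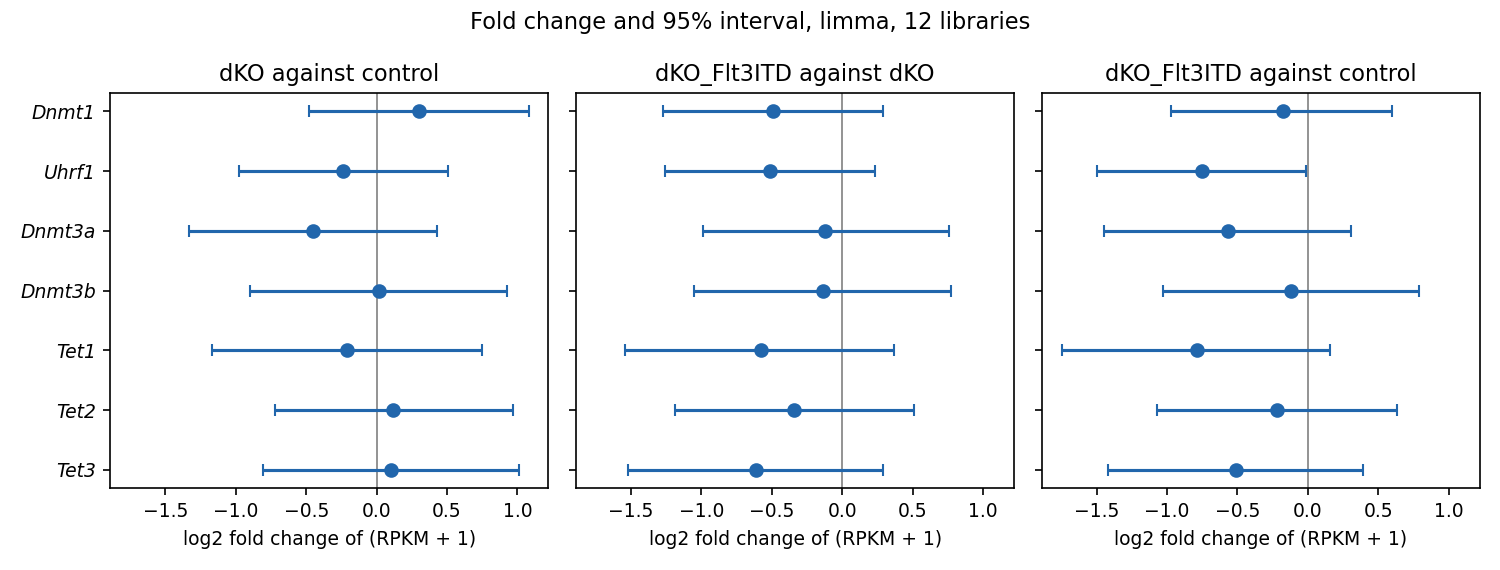
Fold change on the log2(RPKM + 1) scale (x axis) of each gene (y axis) in the 3 comparisons, with the 95% interval of limma over 12 libraries; the line marks 0. Intervals reach from -1.75 to 1.08, every point in the panels of dKO_Flt3ITD lies below 0, and the Uhrf1 interval against control, -1.50 to -0.01, is the single one that does not cross it.

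Uhrf1 (chr17:56303321-56323486, GRCm38, plus strand), the reader of hemimethylated DNA, came closest to the test. It measured 36.8, 22.6, 35.4 and 35.6 RPKM in dKO_Flt3ITD, 73.6, 54.3, 38.4 and 29.6 RPKM in dKO, and 78.9, 45.3, 48.8 and 51.2 RPKM in control. Every dKO_Flt3ITD library lay below every control, while dKO ran across both. The means were 32.6 ± 6.69 RPKM in dKO_Flt3ITD, 49.0 ± 19.3 in dKO and 56.0 ± 15.4 in control (SD, n = 4 each). Against control the dKO_Flt3ITD fold change was -0.75 on the log2(RPKM + 1) scale (SE 0.35, 95% interval -1.50 to -0.01), with an unadjusted p of 0.0479 and an adjusted p of 0.367 in limma. An unadjusted p under 0.05 was met by 1435 genes (13.4%) in that comparison, and 375 genes (3.51%) had all dKO_Flt3ITD libraries below all controls. The groups stayed apart in recovered reads scaled to equal depth, at up to 141 per 1000000 in dKO_Flt3ITD and at least 164 in control, and under both other scalings. Against dKO, the dKO_Flt3ITD value was -0.51 (interval -1.26 to 0.23). For dKO against control it was -0.24 (interval -0.98 to 0.51).

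Dnmt1 (chr9:20907209-20959888, minus strand), the maintenance methyltransferase that UHRF1 recruits, did not separate the groups. It measured 26.4, 12.3, 16.2 and 15.2 RPKM in dKO_Flt3ITD, 27.9, 29.7, 20.8 and 19.3 RPKM in dKO, and 23.1, 18.5, 13.4 and 24 RPKM in control. One dKO_Flt3ITD library, the first, lay among the dKO values, and the other 3 lay below all 4 dKO libraries. The fold changes were 0.30 for dKO against control (interval -0.48 to 1.08), -0.49 for dKO_Flt3ITD against dKO (-1.27 to 0.29) and -0.18 for dKO_Flt3ITD against control (-0.97 to 0.60), all with adjusted p of 0.810 or more in limma.

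Within a library the scaling to library size cancels, but that to transcript length does not. Uhrf1 stood above Dnmt1 in RPKM in all 12. In recovered reads it lay below Dnmt1 in dKO_Flt3ITD 1 (3664 against 4540) and dKO 4 (2013 against 2261). The RPKM ratio was 1.39, 1.85, 2.19 and 2.34 in dKO_Flt3ITD, 2.64, 1.83, 1.84 and 1.54 in dKO, and 3.41, 2.45, 3.63 and 2.13 in control. The means of 1.94 ± 0.420 in dKO_Flt3ITD and 1.96 ± 0.471 in dKO lay below 2.91 ± 0.727 in control (SD, n = 4 each), but the lowest control fell within the range of both mutant groups, and the ratio was not tested.

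**Figure D3:**
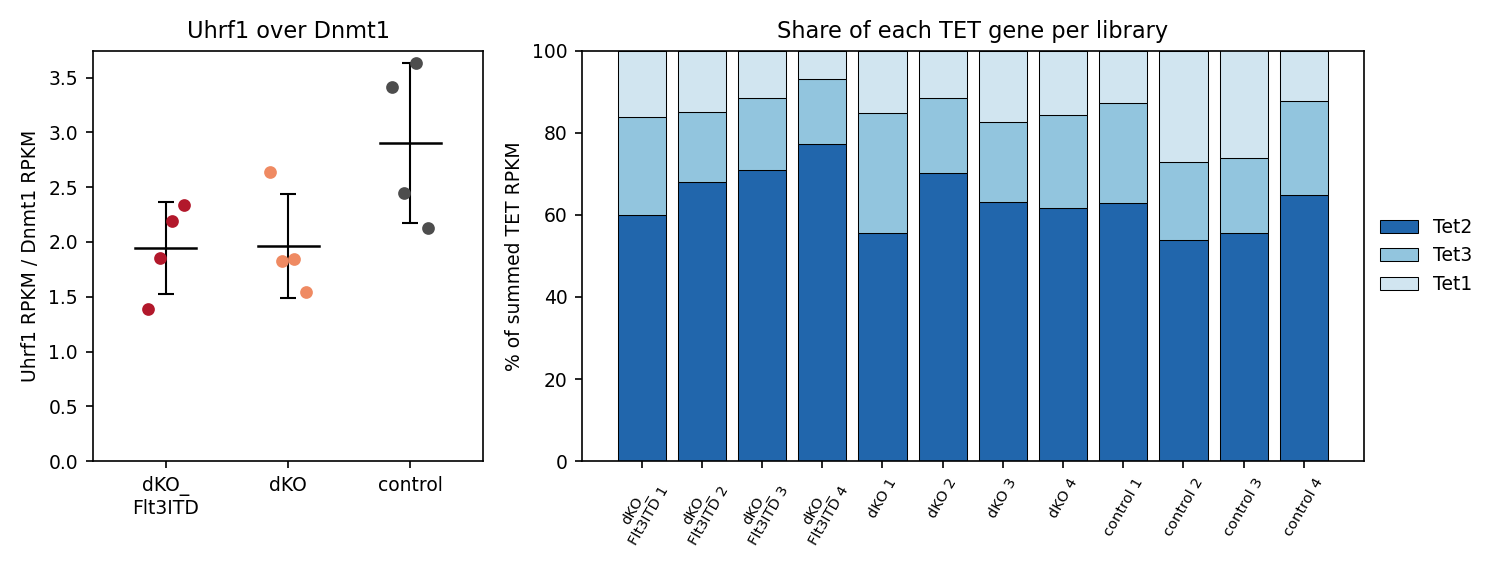
Left, Uhrf1 RPKM over Dnmt1 RPKM (y axis, from 0) in the 4 libraries of dKO_Flt3ITD, dKO and control, with mean and SD; right, the share of Tet2, Tet3 and Tet1 in their summed RPKM (y axis, percent) for each of the 12 libraries. Control ratios run from 2.13 to 3.63 and those of dKO_Flt3ITD from 1.39 to 2.34, and Tet2 holds 54.0% to 77.3% of the sum in every bar.

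The de novo enzymes showed no shift larger than their spread. Dnmt3a (chr12:3806007-3914443, plus strand) measured 7.26, 7.23, 10.1 and 4.38 RPKM in dKO_Flt3ITD, 9.38, 6.72, 7.15 and 7.65 RPKM in dKO, and 8.52, 9.44, 11.7 and 14.6 RPKM in control. The lowest control lay inside both mutant ranges. Its fold change was -0.57 for dKO_Flt3ITD against control (interval -1.45 to 0.31), -0.45 for dKO against control (-1.33 to 0.43) and -0.12 for dKO_Flt3ITD against dKO (-0.99 to 0.76), with adjusted p from 0.596 to 0.971 in limma. Dnmt3b (chr2:153649450-153687730, plus strand) measured 18.3, 30.8, 21.7 and 17.4 RPKM in dKO_Flt3ITD, 12.4, 25.7, 40.0 and 24.4 RPKM in dKO, and 34.6, 20.1, 12.3 and 34.8 RPKM in control. It was the most variable writer within dKO and control, with libraries of 1 genotype differing by as much as those of different genotypes. Its fold change was 0.02 for dKO against control, -0.14 for dKO_Flt3ITD against dKO and -0.12 for dKO_Flt3ITD against control, with 95% intervals that lay between -1.05 and 0.93. Dnmt3b exceeded Dnmt3a in RPKM in all 12 libraries, by 3.22 ± 1.05 times in dKO_Flt3ITD, 3.49 ± 1.77 in dKO and 2.41 ± 1.25 in control (SD, n = 4 each). It did not in the recovered reads of every library, with 1331 against 2911 in control 3. Opposite-strand genes overlap both loci, Dnmt3aos and Dnmt3bos, as well as Tet2 (Gm42567), Tet3 (B230319C09Rik) and the 3 targeted genes, and no source used here says whether counting used strand, so reads of a gene and its antisense partner cannot be told apart. Dnmt3c, a tandem copy that neighbours Dnmt3b in mouse, was not analysed here.

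Tet2 (chr3:133463679-133545139, minus strand), the eraser most often mutated in blood cancer, was the main TET transcript in every library. It measured 7.56, 14.0, 8.69 and 15.4 RPKM in dKO_Flt3ITD, 9.85, 21.1, 12 and 16.0 RPKM in dKO, and 15.1, 10.9, 12.3 and 13.7 RPKM in control. Control libraries were the tightest, at 13.0 ± 1.81 RPKM (SD, n = 4), and both mutant groups reached to either side of them. Its share of the summed TET transcripts was 69.1% ± 7.20 in dKO_Flt3ITD, 62.7% ± 5.96 in dKO and 59.3% ± 5.36 in control, with overlapping ranges. The fold change was -0.34 for dKO_Flt3ITD against dKO (interval -1.19 to 0.51), 0.12 for dKO against control (-0.72 to 0.97) and -0.22 for dKO_Flt3ITD against control (-1.07 to 0.63).

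Tet3 (chr6:83362373-83459084, minus strand), which is best known from the oocyte and zygote, was the second gene whose dKO_Flt3ITD values stood apart. It measured 3.01, 3.50, 2.14 and 3.16 RPKM in dKO_Flt3ITD, 5.17, 5.52, 3.69 and 5.85 RPKM in dKO, and 5.83, 3.81, 4.07 and 4.87 RPKM in control. All 4 dKO_Flt3ITD libraries lay below all 8 others, by a gap of 3.50 to 3.69 RPKM at the nearest pair. The fold change was -0.61 against dKO (SE 0.43, interval -1.52 to 0.29, adjusted p 0.787 in limma) and -0.51 against control (SE 0.43, interval -1.42 to 0.39, adjusted p 0.662). Groups that do not overlap, with dKO_Flt3ITD below, were seen for 235 genes (2.2%) against dKO and for 375 genes (3.51%) against control. The separation held under 2 other scalings of RPKM but not in recovered reads per 1000000, where the highest dKO_Flt3ITD library stood at 41.4 and the lowest dKO at 39.3. For dKO against control the fold change was 0.10 (interval -0.81 to 1.01).

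Tet1 (chr10:62804570-62908996, minus strand), the eraser best known from embryonic stem cells and germ cells, was the lowest of the set. It measured 2.03, 3.09, 1.41 and 1.36 RPKM in dKO_Flt3ITD, 2.70, 3.46, 3.28 and 4.06 RPKM in dKO, and 3.07, 5.45, 5.80 and 2.58 RPKM in control. The second dKO_Flt3ITD library reached into both other groups, and the other 3 lay below them. Against control the dKO_Flt3ITD fold change had the largest size in the set, -0.79 (SE 0.45, interval -1.75 to 0.16), with an adjusted p of 0.476 in limma. Against dKO it was -0.58 (interval -1.54 to 0.37), and for dKO against control -0.21 (-1.17 to 0.75). The pseudocount of 1 understates changes at such levels. On recovered reads with voom the value against control was -1.11, with an adjusted p of 0.271.

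The 3 TET genes summed to 16.3 ± 4.53 RPKM in dKO_Flt3ITD, 23.2 ± 5.85 in dKO and 21.9 ± 1.64 in control. The 3 methyltransferases summed to 46.8 ± 6.73 RPKM in dKO_Flt3ITD, 57.8 ± 8.73 in dKO and 56.3 ± 16.5 in control. The ratio of the sums, methyltransferases over TET genes, was 3.09 ± 1.11 in dKO_Flt3ITD, 2.61 ± 0.749 in dKO and 2.58 ± 0.741 in control (SD, n = 4 each).

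Over all 12 libraries the highest correlations among the 7 were those of the maintenance partners and of a pair of erasers. Log2 levels of Dnmt1 and Uhrf1 had a Pearson r of 0.62 and a Spearman rho of 0.64, and of 0.66 (Pearson) once group means were removed. Without the 2 libraries farthest from the median of Dnmt1 the r was 0.43. Tet2 and Tet3 had an r of 0.62 and a rho of 0.59, 0.58 after removal of group means, and 0.51 without the 2 libraries farthest in Tet2. The order depended on the libraries: without the 2 farthest, Dnmt3b and Tet3 reached 0.46, and Uhrf1 and Tet3 0.43. Dnmt3a and Dnmt3b had an r of -0.01, and of -0.66 without the 2 farthest. Uhrf1 and Tet1 had an r of 0.15, and of -0.63 with group means removed. These are 6 of 21 pairs, given as descriptions without a test, and all share the libraries' depth and cell state. By the highest r among 6940 genes with a mean of at least 5 RPKM, Dnmt1 was most like Cd68 (0.839), Mb21d1 (0.816) and Prim1 (0.804), the last a subunit of DNA primase. Uhrf1 was most like Gatad2a (0.884), Hsp90aa1 (0.882) and Mb21d1 (0.880). Mb21d1, which encodes the DNA sensor cGAS, stood in the lists of both maintenance partners, which themselves had an r of 0.62. Dnmt3a was most like Ermp1 (0.852), Kdm1a (0.840) and Mn1 (0.820), and Dnmt3b most like Clk2 (0.871), Rngtt (0.819) and Ptbp2 (0.810). Tet1 was most like Zfp52 (0.896), Tra2b (0.835) and Srsf3 (0.832). Tet2 was most like Bace1 (0.847), Wbp1 (0.839) and Dbf4 (0.834), and Tet3 most like Zfp367 (0.923), Hist1h2bg (0.871) and Oxct1 (0.841).

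Because maintenance enzymes are made in S phase, a list of 24 S phase and proliferation genes was set beside them. It summed to 1455, 893, 1289 and 1401 RPKM in dKO_Flt3ITD, 1956, 1545, 2124 and 1505 RPKM in dKO, and 1308, 1561, 1976 and 1905 RPKM in control. Every dKO_Flt3ITD sum lay below every dKO sum, and all but 1 control exceeded them. Of 23 tested genes 22 lay below 0 in dKO_Flt3ITD against dKO (median -0.57) and 19 against control (median -0.66), and none passed the test in any comparison. Ccnb1, the mitotic cyclin B, came nearest at 31.3 ± 12.6 RPKM in dKO_Flt3ITD and 78.2 ± 11.8 in control (SD, n = 4 each), with a fold change of -1.36 and an adjusted p of 0.0797 in limma. Top2a, Mki67, Mcm5 and Ccne2 also had all dKO_Flt3ITD libraries below all controls, as 3.51% of all genes did. Per 1000 RPKM of the S phase list, Uhrf1 measured 25.3, 25.3, 27.5 and 25.4 in dKO_Flt3ITD, 37.6, 35.2, 18.1 and 19.7 in dKO, and 60.3, 29.0, 24.7 and 26.9 in control. On that scale dKO_Flt3ITD overlapped control, and control 1 alone lay far above. Whether the lower Uhrf1 values follow from cell cycle was not tested.

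Partners of the writers gave no call. The list covers recruitment and chromatin access, and 11 of its 12 genes were tested. In dKO_Flt3ITD 7 lay below 0 against dKO and 8 against control, with medians of -0.38 and -0.31. Pcna, the replication clamp to which UHRF1 and DNMT1 are tied, averaged 318 ± 131 RPKM in dKO_Flt3ITD and 475 ± 89.5 in dKO (SD, n = 4 each; fold change -0.64, limma adjusted p 0.641). Cdca7, which recruits the HELLS remodeller, averaged 76.0 ± 45.0 RPKM in dKO_Flt3ITD and 130 ± 54.9 in control (-0.86, adjusted p 0.395). Setdb1, a histone methyltransferase that silences retroelements, averaged 6.57 ± 3.30 RPKM in dKO and 12.2 ± 2.88 in control (-0.88, adjusted p 0.648).

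A list of methylated CpG readers and related MBD family genes had 10 of 10 tested. They split 7 above and 3 below 0 in dKO against control, and 2 above and 8 below in dKO_Flt3ITD against dKO. None was called. Mbd4, a glycosylase that removes thymine from mismatched CpG sites, averaged 3.62 ± 2.26 RPKM in dKO_Flt3ITD, 11.3 ± 5.43 in dKO and 6.96 ± 4.95 in control. For dKO_Flt3ITD against dKO its fold change was -1.41 (limma adjusted p 0.593). Mbd1 averaged 5.14 ± 2.22 RPKM in dKO_Flt3ITD and 14.8 ± 6.28 in dKO (-1.33, adjusted p 0.560), and Mbd2 had a fold change of -0.99 (adjusted p 0.707).

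Downstream of the TET enzymes, 12 of 15 genes of base excision and demethylation were tested and none was called. Apobec1, a cytidine deaminase, did not overlap between the mutant groups. It measured 5.11, 2.39, 5.76 and 3.24 RPKM in dKO_Flt3ITD and 13.3, 19.8, 30.3 and 17.5 RPKM in dKO, with control spread between 2.78 and 18.9, and 2.2% of all genes lay apart in that direction between these groups. The fold change of dKO_Flt3ITD against dKO was -2.05 (SE 0.52), with an adjusted p of 0.261 in limma. Gadd45g, a stress-induced gene linked to active demethylation, measured 4.93, 17.2, 0.525 and 5.46 RPKM in dKO_Flt3ITD, 3.49, 1.52, 4.13 and 2.14 RPKM in dKO, and 0 to 1.11 RPKM in control. All dKO libraries and 3 of 4 dKO_Flt3ITD libraries lay above all controls. All dKO libraries lay above all controls for 3.93% of tested genes. Among controls only control 2, at 1.11 RPKM, reached 1 RPKM, so Gadd45g met the filter through mutant libraries. For dKO against control the fold change was 1.56 (limma adjusted p 0.416). For dKO_Flt3ITD against control it was 2.20 (adjusted p 0.108). It passed, at 2.83 and a limma adjusted p of 0.0165, only without the third dKO_Flt3ITD library. That library, at 0.525 RPKM, is the one within the control range, so this pass adds no support to the fold change of dKO_Flt3ITD against control. Gadd45b had a fold change of 1.62 in the same comparison (adjusted p 0.428).

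TET enzymes need 2-oxoglutarate and are inhibited by 2-hydroxyglutarate, which D2hgdh helps to clear. Of 9 tested genes in the list of TET partners and cofactor enzymes, 7 lay below 0 in dKO against control (median -0.63) and none was called. D2hgdh averaged 4.49 ± 2.92 RPKM in dKO and 14.0 ± 6.73 in control (SD, n = 4 each), with no overlap, a fold change of -1.51 and an adjusted p of 0.324 in limma. In dKO against control, 254 genes (2.38%) had all dKO libraries below all controls. In dKO_Flt3ITD, D2hgdh averaged 10.1 ± 5.37 RPKM and overlapped control (-0.53, limma adjusted p 0.739). Idh2, which makes 2-oxoglutarate, had a fold change of -0.86 in dKO against control (adjusted p 0.438). Idh1 of the same list went the other way in that comparison, at 1.02 (limma adjusted p 0.651). The supply of S-adenosylmethionine, the methyl donor of the DNMT enzymes, gave no call among 13 tested genes, with medians of -0.16 for dKO against control, -0.01 for dKO_Flt3ITD against dKO and -0.10 for dKO_Flt3ITD against control. Its nearest genes were Shmt1 (-1.22, adjusted p 0.327, dKO_Flt3ITD against control), Mtr (-1.02, 0.580, dKO against control) and Mthfd2 (1.28, 0.714, dKO against control).

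Among genes whose expression depends on DNA methylation, 1 imprinted locus differed between dKO and control. DNA methylation itself was not measured, and whether it bears on this locus was not tested. Of 19 imprinted genes 8 were in the table and 7 were tested, and Igf2r and its antisense RNA Airn passed in dKO against control, where 1.02% of all genes did. Airn reached the filter only through mutant libraries, so its call adds no count to that of Igf2r. The list was also chosen with earlier results of these data known. All dKO libraries stood above all controls for 420 of all genes (3.93%), Igf2r among them. Igf2r (chr17:12682406-12769664, minus strand) encodes the receptor that clears insulin-like growth factor 2 and carries lysosomal enzymes, and in mouse it is transcribed mainly from the maternal allele. Airn (chr17:12741311-12860136, plus strand) is the paternally expressed antisense RNA that starts within Igf2r and silences it in cis, and its own start lies in a region methylated on the maternal allele. Its RefSeq window held 3 CpG sites and that of Igf2r 34.

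Igf2r measured 7.65, 33.0, 16.7 and 4.54 RPKM in dKO_Flt3ITD, 38.0, 43.7, 24.9 and 32.9 RPKM in dKO, and 3.75, 1.07, 3.82 and 4.53 RPKM in control. All dKO libraries lay far above all controls, while dKO_Flt3ITD ran from just above the highest control into the dKO range. Igf2r rose in dKO by 3.13 on the log2 scale against control (SE 0.54, interval 1.99 to 4.27, limma adjusted p 0.00619). For dKO_Flt3ITD against control the value was 1.70 (adjusted p 0.158), and for dKO_Flt3ITD against dKO -1.43 (adjusted p 0.542). The call in dKO was lost with voom on recovered reads (adjusted p 0.0520) and without the libraries numbered 1 (0.0613).

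Airn was read 7, 329, 145 and 2 times in dKO_Flt3ITD, 285, 202, 221 and 254 times in dKO, and 1, 1, 1 and 0 times in control. In RPKM this was 0.117, 8.07, 2.68 and 0.0377 in dKO_Flt3ITD, 7.80, 6.06, 3.58 and 6.23 in dKO, and 0 to 0.0229 in control. The 2 dKO_Flt3ITD libraries with the most Airn were also the 2 with the most Igf2r. Airn was higher in dKO than in control (log2 fold change 2.73, SE 0.61), a size that depends on the pseudocount. The limma adjusted p of 0.0384 gives no support here, because Airn passed the filter only through mutant libraries. Its call was lost in each of 8 fits that left out 1 library (adjusted p 0.0638 to 0.108). Airn and Igf2r overlap on opposite strands, so their reads cannot be told apart where counting ignored strand.

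**Figure D4:**
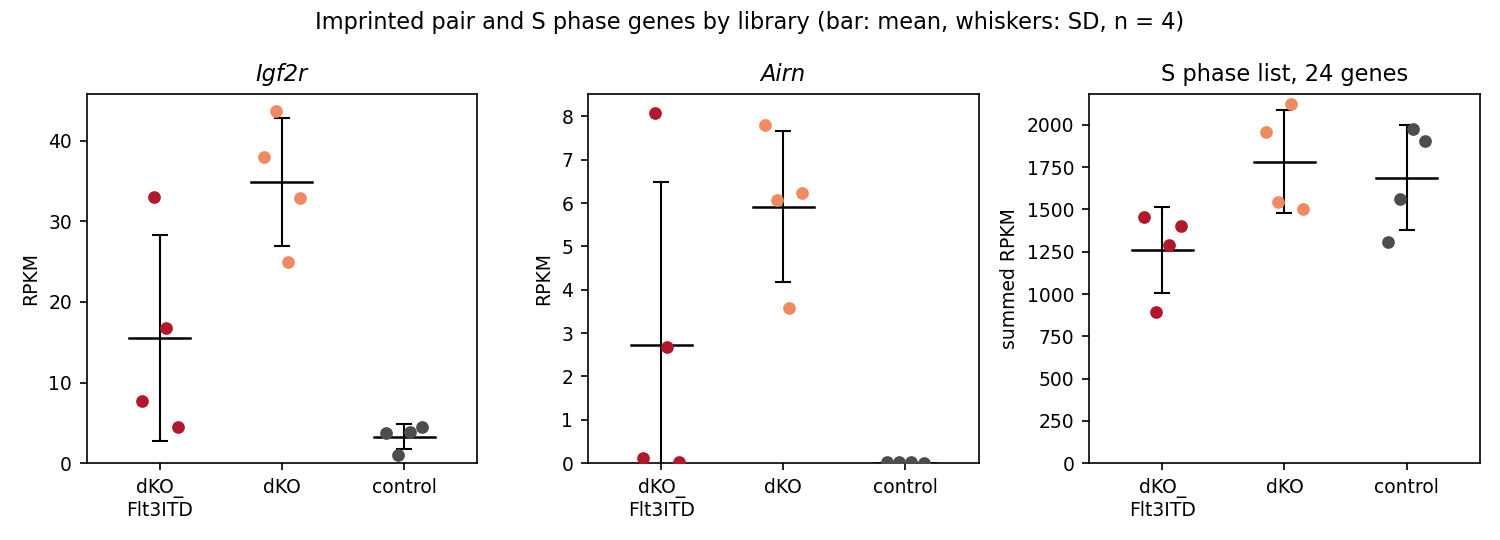
RPKM of Igf2r and Airn and the summed RPKM of the 24 S phase genes (y axes, linear from 0) in the 4 libraries of dKO_Flt3ITD, dKO and control (x axis), with mean and SD; the lower Airn whisker of dKO_Flt3ITD is cut at 0. Igf2r runs from 24.9 to 43.7 in dKO and 1.07 to 4.53 in control, Airn is near 0 in all controls, and S phase sums of dKO_Flt3ITD lie below those of dKO.

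The other imprinted genes did not pass. Impact, a regulator of translation, measured 75.2, 59.3, 57.3 and 76.9 RPKM in dKO and 97.6, 121, 132 and 125 RPKM in control, with no overlap, as for 2.38% of all genes in that direction (fold change -0.82, limma adjusted p 0.382). In dKO_Flt3ITD it measured 41.7 to 96.3 RPKM, also below all controls, as for 3.51% of all genes (-0.93, limma adjusted p 0.195). Plagl1, a growth-restraining zinc finger factor, measured 1.79, 1.39, 1.03 and 0.623 RPKM in dKO, and at most 0.00762 in control (1.11, adjusted p 0.480). Like Airn, it passed the filter only through the mutant libraries. Kcnq1ot1, Mest and Zrsr1 overlapped between all groups, and Meg3 stayed under the filter. Of 16 germline genes that DNA methylation keeps silent in somatic cells, 2 had a row and 1, Ddx4, was tested (fold change -0.93 for dKO_Flt3ITD against control, adjusted p 0.673). Ddx4 was not silent in control, at 3.39 to 12.3 RPKM, and measured 0 to 16.7 RPKM in dKO_Flt3ITD.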

How the data were processed

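Full-length messenger RNA libraries (SMARTer) came from 100 sorted cells each, per the labels' protocols. The authors deposited RPKM values for 13016 genes in 12 libraries. TopHat2 2.0.10, SAMtools 0.1.19, HTSeq 0.5.4p5 and mm10 are named in the submitters' processing notes. The denominator of RPKM, the choice of genes and the strand setting are not given in the sources read. The test was limma 3.58.1 (R 4.3.3) with a mean-variance trend on log2(RPKM + 1), over the 10690 genes that reached 1 RPKM in 4 or more libraries. A single model held all 12 libraries, leaving 9 degrees of freedom, and the Benjamini-Hochberg procedure covered every tested gene, with a threshold of 0.05. Fold changes are on that scale, which understates low genes. The steps of the RPKM values gave whole reads for 100% of genes (tolerance 0.001), in total 13623436 to 33985972 per library. Limma's voom on these reads, with median-of-ratios library sizes, was an alternative. Steps were tested on simulated data. Within a genotype no 2 libraries agreed within counting noise. Gene positions are those of GENCODE mouse release 21 (GRCm38), promoter windows those of RefSeq (GRCm38.p6). Other calculations used Python 3.11.15, numpy 2.4.6, pandas 2.3.3, scipy 1.17.1 and matplotlib 3.10.9. The 7 genes were taken by symbol, but they and the lists were chosen with earlier results of these data known. Named were the 7 genes, the targeted genes, per pathway list the called genes (at most 4) or else up to 3 with the smallest p, per cell type list up to 2 marker genes (not all printed), and per gene the 3 most alike. An item that this rule gives is not reported here. Mki67, Mcm5, Ccne2, Impact, Plagl1, Kcnq1ot1, Mest, Zrsr1, Meg3, Elane, Vcam1, Tcf7, Ctsg, Emr1, Spic and Idh1 were named after their values were seen. Alternatives were other pseudocounts, filters, scalings, variance models and sets of libraries. The overlap of Uhrf1 and Tet3 groups under other scalings was added after seeing the data.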

Additional observations from a re-analysis of the deposited data

Results flagged for a closer look

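In a group of 4 libraries, 1 value stood far from the others for 8 results of 93 groups checked (31 genes in 3 genotypes). Chance gives such a gap in about 1 in 20 groups, or 4.65 of 93. Uhrf1 in dKO_Flt3ITD had a lowest library of 22.6 RPKM. In the same genotype Pcna had a highest library of 515 RPKM and Setdb1 a lowest one of 4.08 RPKM. Shmt1 had a highest dKO library of 63.3 RPKM. In control, Gadd45g had a highest library of 1.11 RPKM, D2hgdh a highest one of 24 RPKM, Ccnb1 a lowest one of 60.7 RPKM and Rrm2 a lowest one of 83.9 RPKM.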

How the results depend on the processing

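None of the 7 enzymes was called under any of 24 settings, and the lowest adjusted p over their 417 alternative values was 0.218. Of these values 402 kept direction and side of the threshold and 15 changed sign. The count over all genes depended more on the processing. For dKO against control it was 109, and 64 with no filter, 210 with array weights, 5 with voom on recovered reads, 40 without the libraries numbered 1 of all groups, and 58 to 96 after removal of any one library (lowest without dKO 4, then 63 without dKO 3, 69 without dKO 1 and 70 without control 1). For dKO_Flt3ITD against dKO it was 0, and 3 with pseudocount 5, 1 with no filter, 1 at 5 RPKM, 2 with a fixed sum, 1 with median-of-ratios scaling, 2 with array weights, 3 without the libraries numbered 1, 1 with only the 8 libraries compared, and 0 to 6 without single libraries (6 without dKO_Flt3ITD 3). For dKO_Flt3ITD against control it was 160, and 91 with no filter, 32 with voom, 103 without the libraries numbered 1, and 87 to 184 without single libraries, with 87 to 99 when any 1 control or dKO_Flt3ITD 1 or 2 was left out. The causes were not tested. A fixed sum of RPKM moved the median of all genes to -0.11, -0.09 and -0.21 for dKO against control, dKO_Flt3ITD against dKO and dKO_Flt3ITD against control. Under it Dnmt3b (-0.11), Tet2 (-0.00081) and Tet3 (-0.02) changed sign in dKO against control, as did Runx1 (-0.09) in dKO_Flt3ITD against dKO. For dKO_Flt3ITD against control, Dnmt3b was 0.17 with array weights and 0.13 without the libraries numbered 1, where Tet2 was 0.01. Leaving out single libraries gave signs on both sides of 0 for Dnmt3b (-0.28 to 0.31) and Tet2 (-0.06 to 0.29) in dKO against control, for Dnmt3a (-0.28 to 0.07), Dnmt3b (-0.43 to 0.11), Runx1 (-0.09 to 0.19) and Flt3 (-0.54 to 0.47) in dKO_Flt3ITD against dKO, and for Dnmt3b (-0.41 to 0.06) in dKO_Flt3ITD against control.

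Igf2r in dKO against control had adjusted p from 0.00147 to 0.0613 over its alternatives. Airn had 0.00833 to 0.179, and was not called with pseudocount 5 (0.0602), no filter (0.0718), a filter of 5 RPKM (0.108), voom (0.167) or without the libraries numbered 1 (0.179). Runx1 passed with array weights in both comparisons with control (0.0382 and 0.0372). Replicate numbers did not pair the libraries: deviations of same-numbered libraries had correlations of -0.15 to 0.13, over 0.1 in 2 of 12 pairs, and 2 of 12 libraries correlated best with their own number. With the replicate block 85, 0 and 116 genes were called for dKO against control, dKO_Flt3ITD against dKO and dKO_Flt3ITD against control, none of them among the 7 enzymes, and Airn was lost (0.0672). Intervals for the 7 enzymes were about 1.5 to 1.9 log2 units wide with 4 libraries a group, while counting error was at most 4.63% per value. The share of amplification in that spread was not tested.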
